A study of Mus musculus with 10 samples.

Results

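The autosomal classical histone deacetylase (HDAC) genes Hdac1, Hdac2, Hdac3, Hdac4, Hdac5, Hdac7, Hdac9, Hdac10 and Hdac11 were examined in undifferentiated mouse embryonic stem cell (ESC) lines. They were picked by gene symbol, and each of the 9 had 1 row among the 20206 genes of the table. The other classical members, Hdac6 and Hdac8, are X-linked and are described only beside them. RNA was sequenced from 5 ESC lines of low protein diet mothers (LPD, 9% casein) and 5 of normal protein diet mothers (NPD, 18% casein). All lines were wild-type C57Bl/6 and labelled male, and the mothers, mated at 7-9 weeks, received the diet from the morning of the plug until embryonic day 3.5, when blastocysts were collected. According to the methods each line came from a different mother, was derived on feeder fibroblasts and was grown in fibroblast-free media before RNA extraction. The lines are LPD lines 1, 4, 6, 20 and 40 and NPD lines 8, 15, 21, 36 and 51, and each was 1 replicate.

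HDACs remove acetyl groups from lysines of histones and other proteins, which generally favours a closed, less active chromatin. The class I enzymes Hdac1, Hdac2 and Hdac3 are nuclear and work inside corepressor complexes. Hdac1 and Hdac2 act in Sin3, NuRD and CoREST, and Hdac3 acts with NCoR and SMRT. The class IIa enzymes Hdac4, Hdac5, Hdac7 and Hdac9 have little catalytic activity of their own, bind MEF2 factors, and leave the nucleus when kinases phosphorylate them and 14-3-3 proteins bind. Hdac10, of class IIb, deacetylates polyamines, and Hdac11, the only class IV enzyme, removes fatty acyl groups. In ESCs, Hdac1 and Hdac2 together are needed for viability.

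Each value is an estimated count for the gene, normalized by the authors, and is not a whole number of reads. The value that 1 read was worth put the depth of the NPD lines between 20329060 and 23248775 read equivalents, and that of the LPD lines between 5824699 and 24242621, with LPD line 4 the shallowest. Pou5f1, Sox2 and Nanog, which mark pluripotent cells, were at 18250 or more, 7481 or more and 5141 or more in every line. The summed value of 10 fibroblast markers ran from 311 to 3258 in LPD lines and from 395 to 5502 in NPD lines. It was highest in NPD line 15, LPD line 6 and NPD line 8, and 4 of the 10 (Dcn, Postn, Twist2 and Fap) had a mean under 10. The 8 primitive endoderm markers summed to between 967 and 11490, lowest in NPD line 15. The Y-linked Ddx3y was at 7.70 in NPD line 15 and 174 in LPD line 4, against 1110 to 1493 in the other lines. Over 334 X-linked genes the median log2 deviation was 0.49 in NPD line 15, so that line went against its male label on both measures. LPD line 4 was low for Ddx3y only, with an X-linked deviation of 0.0014. The main counts are also given without both.

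Promoter sequence for RefSeq start sites on GRCm38.p6 was examined for 6 of the 9 genes, at 10 start sites. The promoters of the remaining genes were not examined, and whether sequence exists for them is not stated here. The windows shown are the 250 bases before a start site, 5′ to 3′ on the strand of the gene, with each CG in capitals, because CG content is a feature the choice of genes did not use. Hdac2 (chr10:36974294-36974543, plus strand) had the steadiest values, Hdac5 (chr11:102230173-102230422, minus strand) the largest spread of the well-expressed members, and Hdac9 (chr12:34917096-34917345, minus strand) the lowest level.
Hdac2: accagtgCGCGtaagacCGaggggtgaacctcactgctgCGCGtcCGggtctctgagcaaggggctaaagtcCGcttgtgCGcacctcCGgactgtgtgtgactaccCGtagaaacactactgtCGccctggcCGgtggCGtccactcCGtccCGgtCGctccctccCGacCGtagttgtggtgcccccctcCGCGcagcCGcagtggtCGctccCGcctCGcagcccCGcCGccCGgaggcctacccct
Hdac5: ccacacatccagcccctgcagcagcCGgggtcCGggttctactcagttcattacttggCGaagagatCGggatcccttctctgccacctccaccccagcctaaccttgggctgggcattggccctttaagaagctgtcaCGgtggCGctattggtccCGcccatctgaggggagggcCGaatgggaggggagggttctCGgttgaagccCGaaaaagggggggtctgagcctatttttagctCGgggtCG
Hdac9: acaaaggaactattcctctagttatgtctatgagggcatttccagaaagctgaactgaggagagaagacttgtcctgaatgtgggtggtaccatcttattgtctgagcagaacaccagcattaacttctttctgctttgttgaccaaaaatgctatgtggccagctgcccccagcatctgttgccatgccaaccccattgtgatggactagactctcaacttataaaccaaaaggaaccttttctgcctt
The letters CG, which read alike on both strands, occurred 27 times before the Hdac2 start, 12 times before Hdac5 and 0 times before Hdac9. Over all 32851 such windows the median was 6, and 7.87% held none. The other Hdac9 start site had 2, Hdac4 had 23, Hdac11 had 17 and the 4 start sites of Hdac7 had 5, 6, 21 and 25. These counts describe the sequence only.

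Levels of different genes were compared as the normalized value per kb of exon (union of all annotated exons). Hdac1 had the highest level per kb, 2049 ± 113 (SD, n = 10), followed by Hdac2 at 536 ± 21.8 and Hdac3 at 314 ± 32.0 (SD, n = 10). The class IIa genes spanned a wide range, with 146 ± 32.3 for Hdac5, 39.1 ± 6.43 for Hdac4, 22.2 ± 5.99 for Hdac7 and 3.48 ± 0.916 for Hdac9 (SD, n = 10). Hdac10 was at 34.3 ± 5.57 and Hdac11 at 31.3 ± 8.92 per kb (SD, n = 10). With this length, the order Hdac1, Hdac2, Hdac3, Hdac5, Hdac4 was the same in 10 of 10 lines, with no overlap between neighbours. Hdac4, Hdac10, Hdac11 and Hdac7 overlapped as neighbours, with Hdac4 above Hdac10 in 8 of 10 lines, Hdac10 above Hdac11 in 6 and Hdac11 above Hdac7 in 9. Hdac7 lay above Hdac9 in every line. Other lengths changed the upper order in some lines. With the longest protein-coding transcript, Hdac3 lay above Hdac2 in LPD line 40 (749 against 727). With the median protein-coding transcript length, Hdac4 lay above Hdac5 in LPD line 4 (236 against 222) and NPD line 15 (328 against 305).

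**Figure D1:**
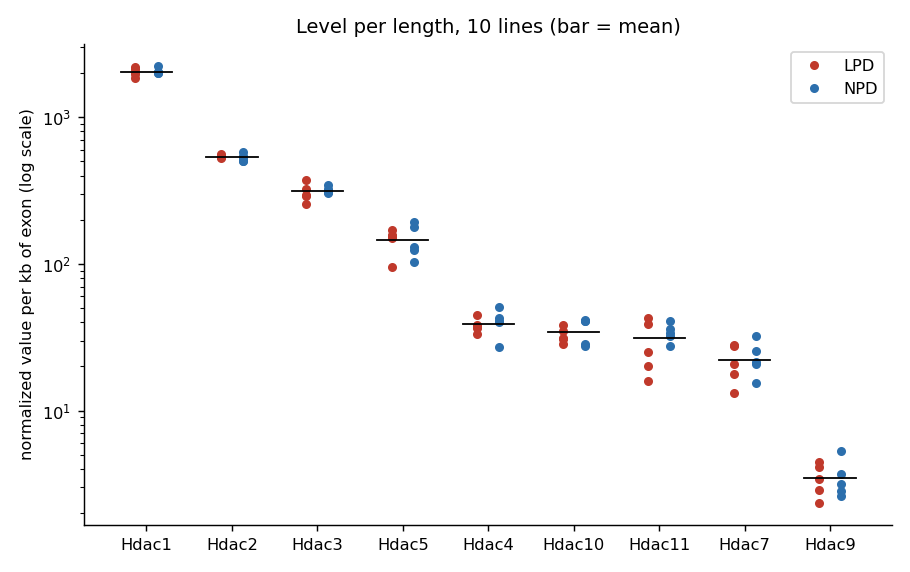
Normalized value per kb of exon (log axis) for the 9 genes in order of their mean, with 1 point per ESC line, LPD in red and NPD in blue, and the mean over 10 lines as a bar. Hdac1 at 2049 and Hdac9 at 3.48 per kb mark the ends of the range, and LPD and NPD points overlap for every gene.

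Of the summed level per kb of the 9 genes, class I made up between 89.1% and 93.2% in a line. LPD lines averaged 91.4% ± 1.26 (SD, n = 5) and NPD lines 91.2% ± 1.47 (SD, n = 5). Class IIa made up 6.63% ± 1.11 (SD, n = 5) with LPD against 6.67% ± 1.47 (SD, n = 5) with NPD. Hdac1 had 3.47 to 4.12 times the level per kb of Hdac2, with a ratio of 3.77 ± 0.285 (SD, n = 5) with LPD against 3.88 ± 0.238 (SD, n = 5) with NPD. Each of these differed less between the diets than between the lines of one diet, and they are given with no test. The shares leave out the X-linked Hdac6 and Hdac8. Hdac6, of class IIb, had a mean value of 2789 over 5817 exon bases, against 2399 over 4474 for Hdac2. Shares over all 11 classical members would therefore differ from these. The shares also depended on the length used, a setting chosen after seeing the data. With the median protein-coding transcript length, class IIa made up 8.35% to 13.7% and class I 83.4% to 89.0% in a line, and with the longest, Hdac1 had 4.26 to 5.06 times the level per kb of Hdac2.

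Whether maternal diet altered expression of these genes was asked by comparing LPD with NPD lines in the 14354 genes that averaged at least 10, which include all 9. None of the 9 passed an adjusted p of 0.1 (limma, Benjamini-Hochberg), and 0 had an unadjusted p under 0.05. Over all genes 0% passed the first threshold and 5.02% the second. LPD and NPD lines overlapped for each of the 9, and 1.02% of all tested genes had no overlap. The log2 fold changes, LPD against NPD on the log2(value + 1) scale, which understates changes of low genes, were below 0 for 7 genes and above 0 for 2, with a median of -0.06 against 0.00 over all genes. Adjusted p lay between 0.994 and 0.997 (limma), and two-sided exact permutation p between 0.270 and 0.968, where 5 lines against 5 allow none below 0.00794. Without LPD line 4 and NPD line 15, 0 of the 9 passed either threshold. The 95% interval of the fold change was narrow for Hdac1 and Hdac2 and wide for Hdac7, Hdac9 and Hdac11.

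**Figure D2:**
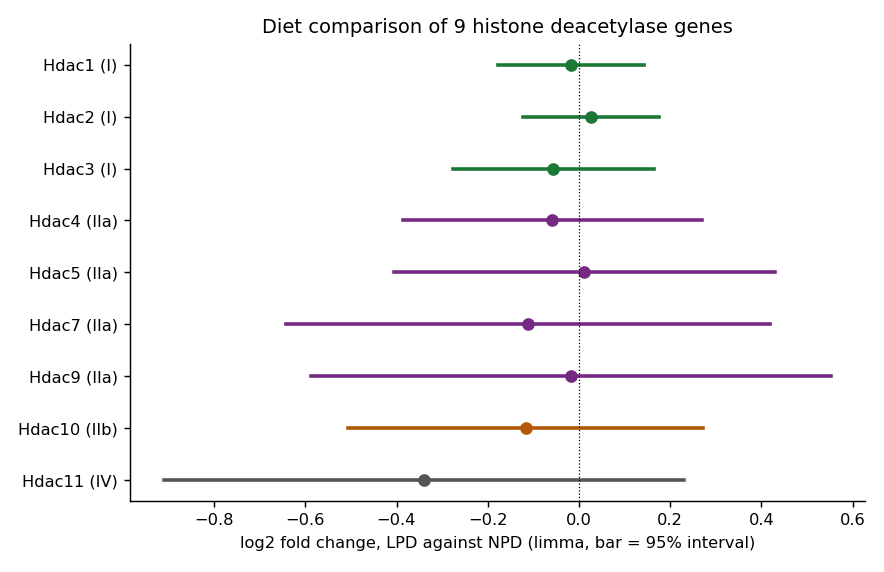
Log2 fold change of each gene, LPD against NPD (limma), as a point with its 95% interval as a bar, coloured by class. All 9 intervals include 0, from the narrow one of Hdac2 (-0.12 to 0.17) to the wide ones of Hdac9 (-0.59 to 0.55) and Hdac11 (-0.91 to 0.23).

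Hdac1 and Hdac2, the paired catalytic subunits of the Sin3, NuRD and CoREST complexes, varied very little between the lines. Hdac1 (chromosome 4, 129516104 to 129542713) had values of 6773, 7016, 6390, 7547 and 7370 in LPD lines 1, 4, 6, 20 and 40. In NPD lines 8, 15, 21, 36 and 51 it had 6973, 6965, 7721, 6923 and 6909. These values rest on at least 2427 read equivalents, and the extremes, LPD line 6 and NPD line 21, lay in different diets. LPD against NPD it changed by -0.02 on the log2 scale, with a standard error of 0.07 and a 95% interval of -0.18 to 0.14, or 0.884 to 1.10 as a fold (exact permutation p = 0.746). Its sign changed without LPD line 6 (0.02) and without NPD line 21 (0.01).

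Hdac2 (chromosome 10, 36974544 to 37001889) had 2504, 2428, 2391, 2407 and 2364 in LPD lines 1, 4, 6, 20 and 40. The NPD lines 8, 15, 21, 36 and 51 had 2257, 2577, 2434, 2265 and 2361, so the LPD values lay inside the NPD range. Hdac2 gave a log2 fold change of 0.03, with a standard error of 0.07 and a 95% interval of -0.12 to 0.17, or 0.918 to 1.13 as a fold (exact permutation p = 0.548). The SD of Hdac2 over the 10 lines was 0.06 on the log2 scale, and only 7 of the 14354 tested genes had a smaller one. For Hdac1 the SD was 0.08, with 124 genes below it. The median over all tested genes was 0.27, and over the 3838 genes that averaged at least 1000 it was 0.17, with a 5th percentile of 0.09. Counting error alone, from the read equivalents, would give 0.03 for Hdac2 and 0.02 for Hdac1.

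The place of Hdac2 among the steadiest genes moved with the scaling. With every line rescaled to the same total its SD was 0.07 and 98 genes were steadier, and with quantile normalization 0.09 and 263 genes. Hdac1 went the other way under these settings, to SDs of 0.06 and 0.07 with 37 and 113 steadier genes. Leaving out single lines left between 5 and 42 genes steadier than Hdac2, and between 48 (without NPD line 21) and 217 (without NPD line 8) steadier than Hdac1. Without LPD line 4 and NPD line 15 the numbers were 9 and 336. These settings for the SD were chosen after seeing the data.

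Of the 9 genes, Hdac1 shares the most sequence with other genes. Gm10093, an annotated processed pseudogene, holds 60.7% of the 31-base words of the Hdac1 coding transcript, but its value was between 0 and 5.96. Gm4864 holds 18.4% of these words and had between 0 and 3.76. AC125456.1, another processed pseudogene, holds 19.5% of them and has no row under that name. How the reads were split between these genes and Hdac1 was not tested.

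**Figure D3:**
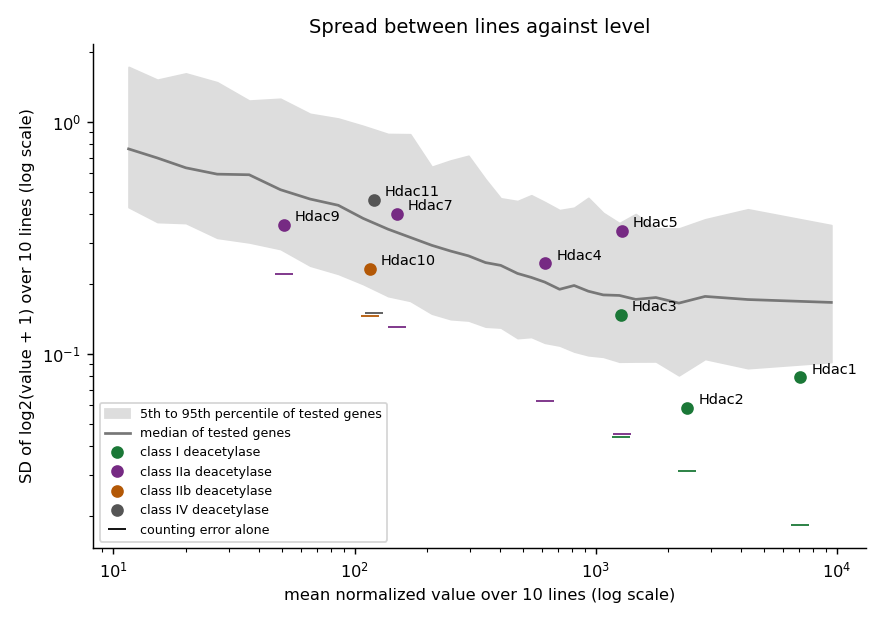
SD of log2(value + 1) over the 10 lines (log axis) against the mean normalized value (log axis) for each of the 9 genes (points, coloured by class), with the SD that counting error alone would give as a dash. The grey band holds the 5th to 95th percentile, and the line the median, of tested genes of like level; Hdac1 and Hdac2 lie under the band, and Hdac5 near its top.

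Hdac3, on chromosome 18, the catalytic subunit of the NCoR and SMRT complexes, had 1198, 1037, 1184, 1320 and 1521 in LPD lines 1, 4, 6, 20 and 40. In NPD lines 8, 15, 21, 36 and 51 it had 1257, 1242, 1314, 1252 and 1397. The LPD lines spread more widely, with 3 of them below every NPD line and LPD line 40 above every NPD line. The log2 SD was 0.21 in LPD and 0.07 in NPD, a difference that was not tested. Between the diets Hdac3 differed by -0.06 on the log2 scale, with a standard error of 0.10 and a 95% interval of -0.28 to 0.16 (exact permutation p = 0.603). Leaving out LPD line 40 gave -0.13, and leaving out LPD line 4 gave 0.01.

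**Figure D4:**
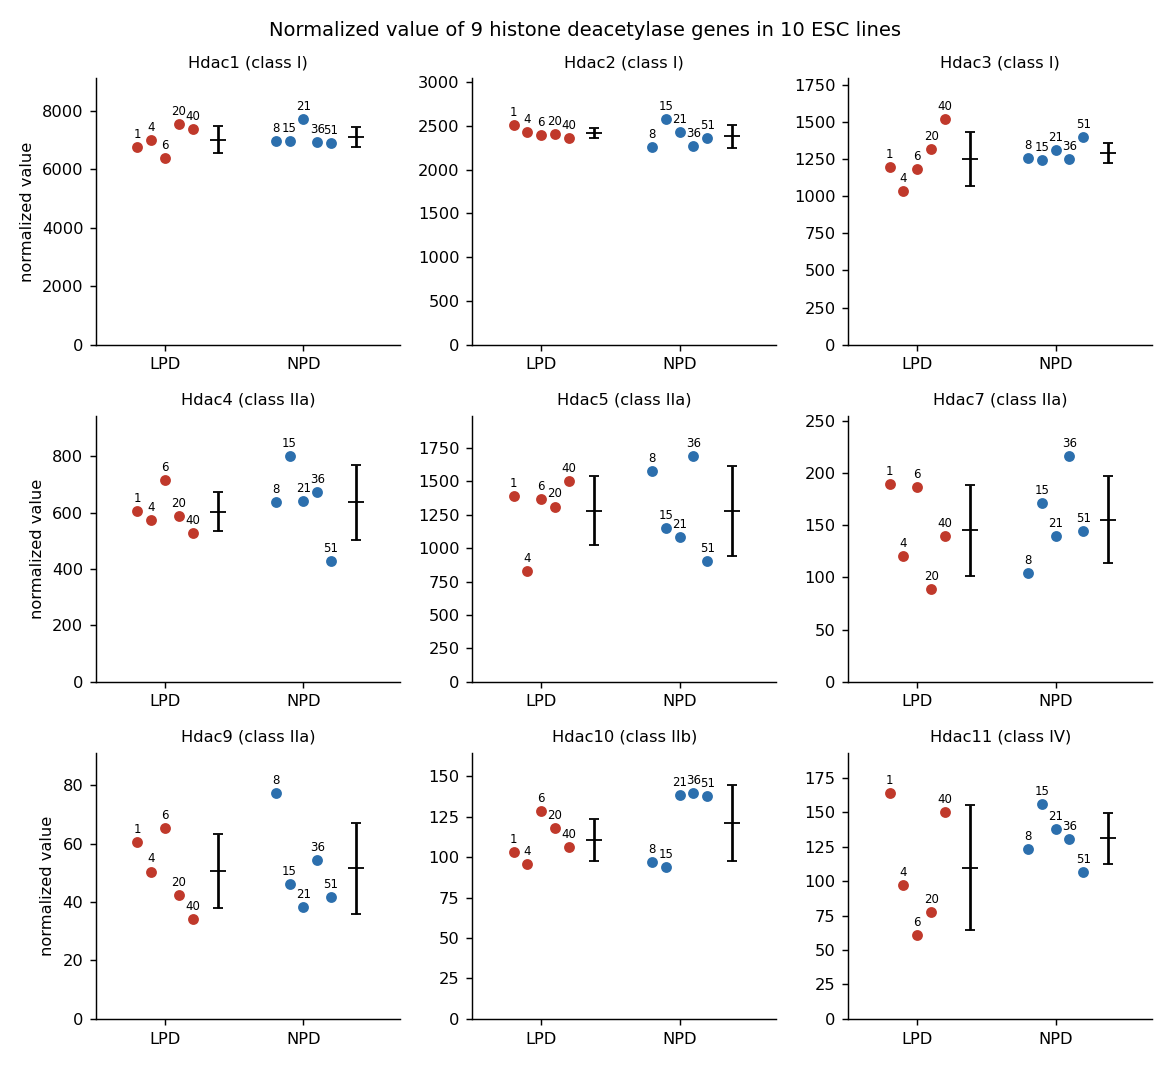
Normalized value (axis from 0) of each gene in the 10 ESC lines, LPD in red and NPD in blue, each point labelled with its line number, with the mean and SD of the 5 lines in black. Hdac1 and Hdac2 vary least across the lines, while Hdac3 runs from 1037 to 1521 and Hdac11 spreads from 60.8 to 164 within LPD.

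Among class IIa genes, Hdac5 and Hdac4 were well expressed, and both differed far more between lines than between diets. Hdac5 (chromosome 11, 102194432 to 102230166) had 1388, 833, 1371, 1312 and 1505 in LPD lines 1, 4, 6, 20 and 40. The NPD values were 1580, 1148, 1085, 1689 and 904 in lines 8, 15, 21, 36 and 51. Low values thus occurred in LPD line 4 and NPD line 51, and LPD lines averaged 1282 ± 261 (SD, n = 5) and NPD lines 1281 ± 337 (SD, n = 5). Hdac5 thus had a log2 fold change of 0.01, with a standard error of 0.19 and a 95% interval of -0.41 to 0.43 (exact permutation p = 0.968). Hdac5 has a mean close to that of Hdac3, but its log2 SD over the lines was 0.34 against 0.15, where counting error alone would give 0.05 and 0.04. Left out in turn, LPD line 4 gave the highest log2 fold change of Hdac5 (0.16) and NPD line 51 the lowest (-0.10), and leaving out both LPD line 4 and NPD line 15 gave 0.13.

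Hdac4 (chromosome 1, 91928779 to 92195699) had 606, 575, 715, 586 and 529 in LPD lines 1, 4, 6, 20 and 40. The values in NPD lines 8, 15, 21, 36 and 51 were 638, 800, 642, 672 and 429. All LPD lines fell inside the NPD range, whose ends were NPD lines 51 and 15. The diets differed in Hdac4 by -0.06 on the log2 scale, with a standard error of 0.15 and a 95% interval of -0.39 to 0.27 (exact permutation p = 0.754). Leaving out NPD line 51 gave -0.19, leaving out NPD line 15 gave 0.03, and leaving out both LPD line 4 and NPD line 15 gave 0.05. The highest values, in NPD line 15 and LPD line 6, were in the lines with the highest sums of fibroblast markers, 5502 and 3258. NPD line 8, with the next highest sum (2062), had 638, below NPD lines 21 and 36. Any part of fibroblasts in the value was not tested. In RNA of whole cultures, fewer cells of a type and less RNA per cell cannot be told apart.

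Hdac7 (chromosome 15, 97792664 to 97844502), known from endothelial cells and thymocytes, was lower, with 189, 121, 187, 88.8 and 140 in LPD lines 1, 4, 6, 20 and 40. It had 105, 172, 140, 216 and 144 in NPD lines 8, 15, 21, 36 and 51. High and low lines were found in both diets. Hdac7 gave a log2 fold change of -0.11, with a standard error of 0.25 and a 95% interval of -0.64 to 0.42 (exact permutation p = 0.659), from -0.24 without NPD line 8 to 0.05 without LPD line 20. Without NPD line 36 it was 0.02.

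Hdac9 (chromosome 12, 34047580 to 34917095), best known from muscle and heart, was the lowest of the family. LPD lines 1, 4, 6, 20 and 40 had 60.5, 50.4, 65.5, 42.3 and 34.3, and NPD lines 8, 15, 21, 36 and 51 had 77.2, 46.2, 38.2, 54.2 and 41.8. In LPD line 4 the value rests on 17.5 read equivalents, and counting error alone would give a log2 SD of 0.22, against 0.36 observed over the lines. For Hdac9 the diets differed by -0.02 on the log2 scale, with a standard error of 0.26 and a 95% interval of -0.59 to 0.55, or 0.665 to 1.47 as a fold (exact permutation p = 0.960). It ranged from -0.12 without LPD line 6 to 0.14 without NPD line 8. The interval allows differences in either direction, and the smallest difference detectable at this depth and number of lines was not estimated.

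Hdac10 (chromosome 15, 89123307 to 89128700), the polyamine deacetylase, had 103, 95.9, 129, 118 and 106 in LPD lines 1, 4, 6, 20 and 40. The NPD lines fell into low values of 96.6 and 93.7 in lines 8 and 15, and high values of 138, 139 and 137 in lines 21, 36 and 51. Every LPD line lay between the lowest and the highest NPD line. Hdac10 had a log2 fold change of -0.12, with a standard error of 0.18 and a 95% interval of -0.51 to 0.27 (exact permutation p = 0.444). It stayed below 0 in all 22 alternatives, from -0.21 to -0.05. Those that change the filter, trend or robust setting cannot move this estimate, and the others use most or all of the same lines.

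Hdac11 (chromosome 6, 91156665 to 91174692) had the largest difference between the diets and the largest spread of the 9 genes. Values in LPD lines 1, 4, 6, 20 and 40 were 164, 97.3, 60.8, 77.4 and 150, and in NPD lines 8, 15, 21, 36 and 51 they were 123, 156, 138, 131 and 107. LPD lines 4, 6 and 20 lay below every NPD line, and LPD line 1 lay above every NPD line. LPD lines averaged 110 ± 45.1 (SD, n = 5) and NPD lines 131 ± 18.3 (SD, n = 5). As a log2 fold change this was -0.34, with a standard error of 0.26 and a 95% interval of -0.91 to 0.23, or 0.532 to 1.17 as a fold. It did not pass the test (exact permutation test, two-sided p = 0.270; limma, adjusted p = 0.994). Leaving out lines moved it to -0.51 without LPD line 1 and -0.15 without LPD line 6. It stayed below 0 in all 22 alternatives, some of which cannot move the estimate. The log2 SD was 0.61 in LPD and 0.20 in NPD, a difference that was not tested. Counting error alone, pooled over the lines of both diets, would give 0.15, and LPD lines 4, 6 and 40 were shallower than every NPD line. Hdac2, Hdac4 and Hdac10 spread more widely in NPD, with log2 SDs of 0.03, 0.16 and 0.16 in LPD against 0.08, 0.33 and 0.29. Hdac5 and Hdac9 were also slightly wider in NPD, and Hdac1 and Hdac7 in LPD.

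Because Hdac11 had the largest SD, the tested genes nearest to its pattern were listed, by the mean absolute difference of centred log2 values over the 10 lines among 14353 genes. They were Gjb5, a connexin, at 0.13, Hs3st6, a heparan sulfate sulfotransferase, at 0.14, and Gsta3, a glutathione S-transferase, at 0.14. The median gene differed by 0.42 and a flat gene would differ by 0.37. Gjb5 was lowest in LPD lines 6 and 20, at 206 and 208, the lines with the lowest Hdac11, and between 338 and 540 in the others. These are the closest of many genes and are given as a description.

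**Figure D5:**
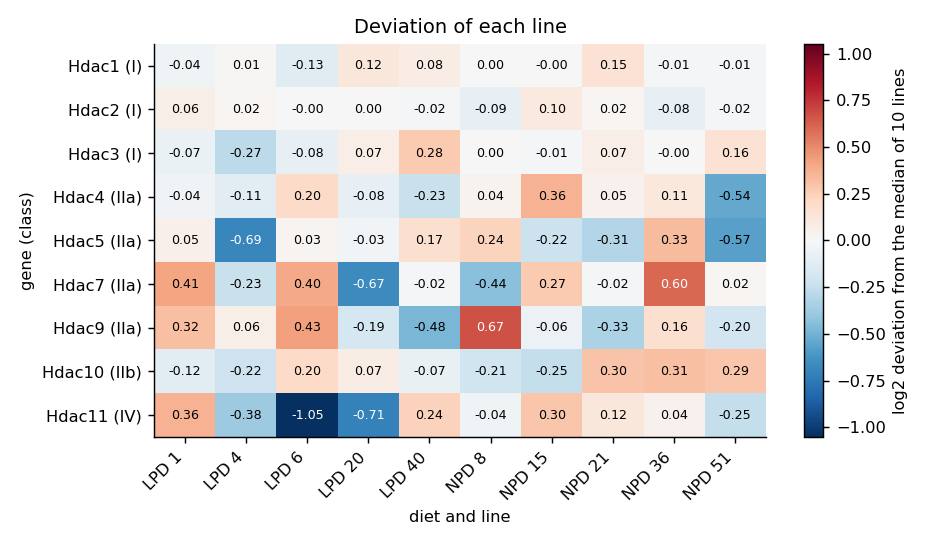
Log2 deviation of each line (columns) from the median of the 10 lines for each gene (rows, with class), printed in each cell and coloured from blue (lower) to red (higher). The rows of Hdac1 and Hdac2 are pale, with Hdac2 between -0.09 and 0.10, Hdac3 runs from -0.27 to 0.28, and Hdac11 reaches -1.05 in LPD line 6 and Hdac5 -0.69 in LPD line 4.

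No line was high or low across the whole family. NPD line 36 was the highest line for Hdac5, Hdac7 and Hdac10, but had the second lowest Hdac2. NPD line 15 was highest for Hdac2 and Hdac4 and lowest for Hdac10. LPD line 4, with the least depth, was lowest for Hdac3 and Hdac5, which rest there on 359 and 288 read equivalents. LPD line 6 was lowest for Hdac1 and Hdac11.

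The X-linked Hdac6, a cytoplasmic tubulin deacetylase of class IIb, had 2543, 2804, 3303, 2309 and 2075 in LPD lines 1, 4, 6, 20 and 40. In NPD lines 8, 15, 21, 36 and 51 it had 3468, 4507, 2553, 2061 and 2262. It was highest in NPD line 15, the line with the raised X-linked median. The 3 highest lines, NPD lines 15 and 8 and LPD line 6, were also those with the highest fibroblast marker sums (5502, 2062 and 3258), and the part of either in the value was not tested. Hdac6 gave a log2 fold change of -0.14, with a standard error of 0.20 (exact permutation p = 0.579), which leaving out NPD line 15 moved to 0.02. Hdac8, the X-linked class I enzyme that deacetylates cohesin, had 68.6 to 143 in LPD and 89.0 to 147 in NPD, again highest in NPD line 15. Between the diets it differed by -0.08 on the log2 scale, with a standard error of 0.22 (exact permutation p = 0.722). Leaving out LPD line 4 gave 0.08, and leaving out NPD line 15 gave a value near 0.

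The partners of the deacetylases were read from the same comparison, in lists made by textbook role. Of all tested genes 2.84% were higher in LPD and 2.18% lower at an unadjusted p under 0.05, and none of the listed genes passed an adjusted p of 0.1 (limma). Among the 37 tested subunits of the Hdac1 and Hdac2 complexes 0 were under an unadjusted p of 0.05, 15 had a log2 fold change above 0 and 22 below, and the median was -0.03. The 2 with the smallest p were Zmym3, of a CoREST complex, and Rcor2, the CoREST corepressor abundant in ESCs. Zmym3 averaged 1202 ± 264 (SD, n = 5) with LPD against 1438 ± 123 (SD, n = 5) with NPD, with a log2 fold change of -0.28 (exact permutation p = 0.111). Rcor2 was also at -0.28 (exact permutation p = 0.127), with every LPD line between 1779 and 2273 and NPD lines between 1722 and 3204. Single lines moved both under 0.05. The unadjusted p was 0.00501 for Zmym3 without LPD line 20 and 0.0455 without NPD line 21 (limma). For Rcor2 it was 0.00453 without NPD line 8 (limma). Leaving out other lines raised it to as much as 0.159 for Zmym3, without LPD line 40, and 0.1965 for Rcor2, without NPD line 36 (limma). With scaling to the same total the unadjusted p was 0.0401 for Zmym3 and 0.0450 for Rcor2 (limma). With depth as a covariate it was 0.474 and 0.0730 (limma). All 5 genes of the Hdac3 complex had log2 fold changes below 0, with a median of -0.04 and 0 under an unadjusted p of 0.05. Tbl1xr1, which brings ubiquitin conjugation to the corepressor, had the largest of them at -0.34 (exact permutation p = 0.0952), and 3 LPD lines fell under the NPD range. Its unadjusted p of 0.0507 became 0.0117 without LPD line 4, 0.0229 without NPD line 51, 0.0350 without NPD line 15 and 0.0440 without LPD line 1 (limma). Each of the other lines, left out alone, raised it, from 0.0787 without NPD line 36 to 0.129 without NPD line 8 (limma). Without both LPD line 4 and NPD line 15 it was 0.00791 (limma). It was 0.0490 with scaling to the same total, 0.0488 with quantile normalization, 0.0232 with depth as a covariate and 0.126 with array weights (limma). Gps2, another subunit, was at -0.05 (exact permutation p = 0.706), which became 0.03 when LPD line 1 was left out and 0.01 when LPD line 4 was.

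Class IIa partners held 2 genes of 22 tested that were higher in LPD at an unadjusted p under 0.05, and 0 that were lower. Mef2b, a MEF2 transcription factor, had 136, 169, 248, 164 and 151 in LPD lines 1, 4, 6, 20 and 40 and 125, 97.7, 125, 104 and 83.1 in NPD lines 8, 15, 21, 36 and 51. The groups did not overlap, with all LPD lines higher, and 1.02% of all tested genes had no overlap in either direction. Mef2b had a log2 fold change of 0.68 and a standard error of 0.19 (limma, adjusted p = 0.664), and its exact permutation p of 0.00794 is the smallest that 5 lines against 5 can give. Sik1, a salt-inducible kinase that phosphorylates class IIa HDACs, averaged 3164 ± 451 (SD, n = 5) with LPD against 2536 ± 390 (SD, n = 5) with NPD, and 2 LPD lines lay over the NPD range. This was 0.32 on the log2 scale (exact permutation p = 0.0397; limma, adjusted p = 0.907), and the unadjusted p rose to 0.0590 without LPD line 6, 0.0612 without NPD line 36 and 0.0676 without LPD line 4 and NPD line 15 (limma). With depth as a covariate the log2 fold change of Sik1 was 0.26 (limma, unadjusted p = 0.114), and the exact Mann-Whitney p was 0.0556. The other 20 tested, among them the 14-3-3 genes, did not reach an unadjusted p of 0.05, and Mef2c and Camk4 had a mean under 10.

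The sirtuins, NAD-dependent deacetylases of another protein family, had 1 gene of 7 at an unadjusted p under 0.05. Sirt4, a mitochondrial sirtuin, had 87.9, 57.4, 99.2, 58.9 and 94.0 in LPD lines 1, 4, 6, 20 and 40 and 126, 150, 146, 78.8 and 141 in NPD lines 8, 15, 21, 36 and 51. NPD line 36 lay within the LPD range and the other NPD lines above it. Sirt4 differed by -0.69 on the log2 scale, with a standard error of 0.24 (exact permutation p = 0.0317; limma, adjusted p = 0.839). Without LPD line 4 and NPD line 15 it was -0.51 (limma, unadjusted p = 0.0734), with depth as a covariate -0.64 (limma, unadjusted p = 0.0537), and the exact Mann-Whitney p was 0.0556. None of the 12 histone acetyltransferases, which oppose the HDACs, had an unadjusted p under 0.05 in limma, and their median log2 fold change was -0.05. Kat5, of the NuA4 complex, was at 0.16 (exact permutation p = 0.0159, and limma adjusted p = 0.994), where 4 LPD lines exceeded the highest NPD line. Without LPD line 20, at 860, Kat5 was at 0.09 (limma, unadjusted p = 0.30). Kat6b was at -0.20 (exact permutation p = 0.159). It moved to -0.30 without LPD line 4 (limma, unadjusted p = 0.0105) and to -0.13 without LPD line 40 (limma, unadjusted p = 0.283). With depth as a covariate Kat6b was at -0.31 (limma, unadjusted p = 0.0466). Of 22 bromodomain proteins, the readers of acetyl-lysine, 1 was at an unadjusted p under 0.05. Brd2 averaged 6013 ± 959 (SD, n = 5) with LPD against 4760 ± 476 (SD, n = 5) with NPD, and 4 LPD lines exceeded the highest NPD line. Its log2 fold change was 0.33 (exact permutation p = 0.0476; limma, adjusted p = 0.860), which became 0.43 with an adjusted p of 0.142 (limma) once LPD line 40, at 4435, was left out. Leaving out LPD line 4 and NPD line 15 gave 0.27 (limma, unadjusted p = 0.0800), and the exact Mann-Whitney p was 0.0952.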

How the data were processed

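mRNA was sequenced from 10 ESC lines, 1 library each. The authors trimmed adaptors with cutadapt, filtered reads by quality and ran Salmon on GRCm38 transcripts, and the submitters' processing notes name sleuth 0.30.0. The deposited signal is an estimated count per gene that the authors normalized, with DESeq2 by its name. The step from transcripts to genes is not given in the sources used here, and 0 columns lacked a mapped line. Low values were whole multiples of 1 read (tolerance 0.15) in only 63.2% to 68.7% of cases, so no count test was used.

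Genes were matched to GENCODE M21 on GRCm38 (19891 of 20206), and promoters come from RefSeq. All 14354 genes that averaged at least 10 were tested on log2(value + 1) with limma 3.58.1 in R 4.3.3 (eBayes, trend on, diet as the only term), after the test was tried on simulated data. Exact permutation tests were two-sided and covered 252 assignments. With 1 library per line, p-values measure the spread between lines. Python 3.11.15 with scipy 1.17.1 did the rest. Genes named were the 9 deacetylases, Hdac6 and Hdac8, and of each partner list every gene at an unadjusted p under 0.05 or otherwise the 2 with the smallest p. The members and lists were chosen with earlier results of these data known. Alternatives were pseudocounts, filters, scalings, limma settings, an exact Mann-Whitney test, depth as a covariate and lines left out.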

Additional observations from a re-analysis of the deposited data

Results flagged for a closer look

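Of 22 groups of 5 lines tested for a line that stands apart (11 deacetylases in each diet), 2 were called by a gap test that flags about 1 in 20 groups by chance. Hdac1 in NPD line 21 was 7721, where the next NPD line had 6973 and the lowest 6909. Hdac5 in LPD line 4 was 833, where the next LPD line had 1312 and the highest 1505, and LPD line 4 is the line with the least depth.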

How the results depend on the processing

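No deacetylase passed an adjusted p of 0.1 or an unadjusted p of 0.05 under any alternative run. Over all genes, 0 passed an adjusted p of 0.1, against 1 with array weights and between 0 and 40 with single lines left out, the 40 without LPD line 40. Hdac10 and Hdac11 kept their direction throughout, though a change of filter, trend or robust setting leaves the estimate itself unchanged. The sign turned with scaling to the same total for Hdac2 (-0.0087) and Hdac5 (-0.023), with quantile normalization for Hdac5 (-0.010), with array weights for Hdac4 (0.011) and Hdac9 (0.052), with depth as a covariate for Hdac3 (0.014), Gps2 (0.019) and Hdac8 (0.12), and without LPD line 4 and NPD line 15 for Hdac4 (0.046) and Hdac8 (0.17). The cause was not tested. Leaving out single lines, log2 fold changes ran from -0.044 to 0.016 for Hdac1, 0.0071 to 0.055 for Hdac2, -0.13 to 0.0090 for Hdac3, -0.19 to 0.031 for Hdac4, -0.10 to 0.16 for Hdac5, -0.24 to 0.050 for Hdac7, -0.12 to 0.14 for Hdac9, -0.13 to 0.027 for Gps2, -0.26 to 0.022 for Hdac6 and -0.18 to 0.084 for Hdac8. The sign of Hdac5 turned without any of LPD lines 1, 6, 20 and 40 and NPD lines 15, 21 and 51, and that of Hdac9 without any of LPD lines 20 and 40 and NPD lines 8 and 36. With the median protein-coding transcript length in place of the exon union, Hdac11 ranked 6 and Hdac10 ranked 7 per kb, the reverse of the order given. With a mean of at least 100, Hdac9 was not tested. No paired analysis was possible because the groups compared share no line numbers. Depth limits Hdac9, Hdac8, Hdac10, Hdac11 and Hdac7 most, which had 17.5, 23.7, 33.2, 33.6 and 41.7 read equivalents in LPD line 4.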
